A study of Mus musculus with 16 samples.

Results

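Messenger RNA of 8 genes of alveolar type 1 cells (Ager, Pdpn, Aqp5, Hopx, Cav1, Rtkn2, Clic5 and Akap5) was followed in RNA-seq of newborn mouse lung and liver. They were 8 of the 25054 rows of the deposited gene table, chosen by symbol as a set of known alveolar type 1 genes, and none shared its symbol with another row. Alveolar type 1 cells are the thin, wide epithelial cells that cover most of the alveolar surface and through which gas passes to the capillaries. They differentiate from a distal epithelial progenitor before birth, alongside the cuboidal type 2 cells that make surfactant. The transcription factor Nkx2-1 and the YAP, TAZ and TEAD proteins are known to be needed for their identity.

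The pups came from crosses of mice heterozygous for the Man1a2 allele Man1a2tm1.1Ahe, on a C57BL/6J background, in which exon 2 of this Golgi alpha-mannosidase gene is deleted; heterozygous pups carried 1 such copy and null pups no intact copy. Both parents were given either a solution of N-acetylcysteine (NAC, an antioxidant and glutathione precursor, at up to 1 g/kg) or plain water, called placebo, from before breeding until delivery. Litters were checked every 8 h for 24 h, live wild-type (WT) and live heterozygous pups were killed at 24 h, and dead heterozygous and dead null pups were collected when found. Each of the 16 libraries was 1 pool of RNA for a pup group, treatment and tissue, from 3 experiments, or 2 for dead heterozygous pups. A test therefore compared pools. For NAC its p-value measured how far the NAC difference varied between pup groups, and otherwise the spread between pools left by the model. With so few pools, part of that spread was borrowed from other genes. All dead pups differed from live ones in the time and manner of collection as well, and dead null pups had no live counterpart.

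The tissue labels and the marker genes disagreed in 8 libraries, so libraries were grouped by content. Lung-content libraries had at least 1000 CPM (counts per 1000000 library counts) of Sftpc, the surfactant protein C gene of type 2 cells, and under 1000 CPM of Alb, the serum albumin gene of hepatocytes. Liver-content libraries had at least 50000 CPM of Alb. By this rule 7 libraries had lung content, of which 4 carried the liver label, and 8 had liver content, of which 4 carried the lung label. The remaining library, dead null placebo labelled lung, was mixed, with 5553 CPM of Sftpc and 9280 CPM of Alb. Which part of a label was wrong cannot be told apart, and pup group and treatment were taken as labelled. In dead null pups both placebo libraries held lung markers and both NAC libraries had liver content. Exchanging tissue labels within a treatment does not give each treatment a lung and a liver library there. The treatment labels of the dead null libraries are thus less sure, and dead null placebo below is placebo by its label only. The lung-content libraries were live WT, live heterozygous and dead heterozygous with each treatment, plus dead null placebo; no lung-content library of dead null pups with NAC was found. Among live pups the lung-content NAC libraries carried the lung label and the placebo ones the liver label, and among dead heterozygous pups the reverse held. Totals were 7236865 to 11808823 counts in lung-content and 14115802 to 16107749 in liver-content libraries, with 8601326 in the mixed one. Man1a2 itself read 41.4 to 75.4 scaled CPM in lung-content libraries and 58.8 in the median; counts were per gene, so the deletion of exon 2 was not checked by them.

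The members lie on 7 chromosomes of mouse build GRCm38, and the counts cover the exons of each gene. Ager, which encodes the receptor for advanced glycation end products, spans chr17:34597862-34600936 on the plus strand. Clic5, for a chloride intracellular channel protein tied to the actin cortex, is on the same chromosome at chr17:44188584-44280172, also plus strand. Aqp5, the water channel of the apical membrane, is at chr15:99590782-99594829 (plus). Pdpn, for the mucin-type glycoprotein podoplanin, is at chr4:143267431-143299564 (minus). Hopx, for a homeodomain protein that does not bind DNA, is at chr5:77086988-77115121 (minus), and an exon overlaps Hopxos on the other strand. Cav1, for caveolin 1, the scaffold of caveolae, is at chr6:17306335-17341452 (plus). Rtkn2, for the signalling protein rhotekin 2, is at chr10:67979570-68059740 (plus) and overlaps Gm16212 on the other strand. Akap5, for an anchoring protein that tethers protein kinase A to the plasma membrane, is at chr12:76324891-76334153 (plus). The library kit kept strand, but the setting used for counting was not given in the sources used here, so reads of Hopx and Rtkn2 may include their antisense partners.

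Of the 8 members, 7 had a promoter entry in RefSeq (GRCm38.p6), with 9 start sites in all; Rtkn2 had none. The 250 bases before the start are printed for the member with the widest range across lung-content libraries, Akap5 (chr12:76324641-76324890, plus strand), and for the one with the narrowest, Ager (chr17:34597600-34597849, plus strand). Capitals mark matches to the GC box letters GGGCGG on either strand.
Akap5: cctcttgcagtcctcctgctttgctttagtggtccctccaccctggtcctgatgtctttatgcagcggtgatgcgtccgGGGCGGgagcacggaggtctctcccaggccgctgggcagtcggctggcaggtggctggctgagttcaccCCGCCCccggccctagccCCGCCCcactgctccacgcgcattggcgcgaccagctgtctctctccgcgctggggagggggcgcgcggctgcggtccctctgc
Ager: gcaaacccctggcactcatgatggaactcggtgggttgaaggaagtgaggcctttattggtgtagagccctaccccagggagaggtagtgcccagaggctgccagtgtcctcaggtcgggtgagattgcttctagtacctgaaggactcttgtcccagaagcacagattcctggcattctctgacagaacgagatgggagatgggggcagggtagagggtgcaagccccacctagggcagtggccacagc
The Akap5 sequence was 70.0% G and C and held 20 CpG pairs, and that of Ager was 57.6% G and C with 3 CpG pairs; the median over 32851 promoters was 52.4%. A GC box was present at 4 of the 9 starts (in Akap5, Aqp5, Cav1 and Clic5) and in 32.7% of all promoters. By GENCODE positions 246 of the 250 bases at the Aqp5 start lay inside the gene itself. So did all 250 at a further start of Hopx and of Cav1. The TEAD letters CATTCC were in 12.6% of all promoters and the NKX2-1 letters CAAGTG in 11.6%, and neither was found at any of the 9 starts on either strand. The TATAAA letters were in 12.4% of promoters and at 1 member start, in Cav1.

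All 8 genes were higher in each of the 7 lung-content libraries than in any of the 8 liver-content ones. Values below are CPM scaled by trimmed mean of M-values factors (TMM-scaled CPM), and this contrast was a description, since content was set by other genes of the same libraries. Ager had the lowest lung-content value 129.6 times the highest liver-content one, at 988 against 7.63. The gap was 51.68 times for Clic5, 30.32 for Rtkn2, 14.37 for Cav1, 12.67 for Akap5, 8.19 for Hopx and 5.03 for Pdpn. Aqp5 had 0 to 2 counts in every liver-content library, at or under a floor of 3 counts per library, and its lowest lung-content value, 142, was at least 479.46 times the highest such floor. The lowest lung-content value came from the live heterozygous NAC library for 6 members, all but Aqp5 and Rtkn2.

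**Figure D1:**
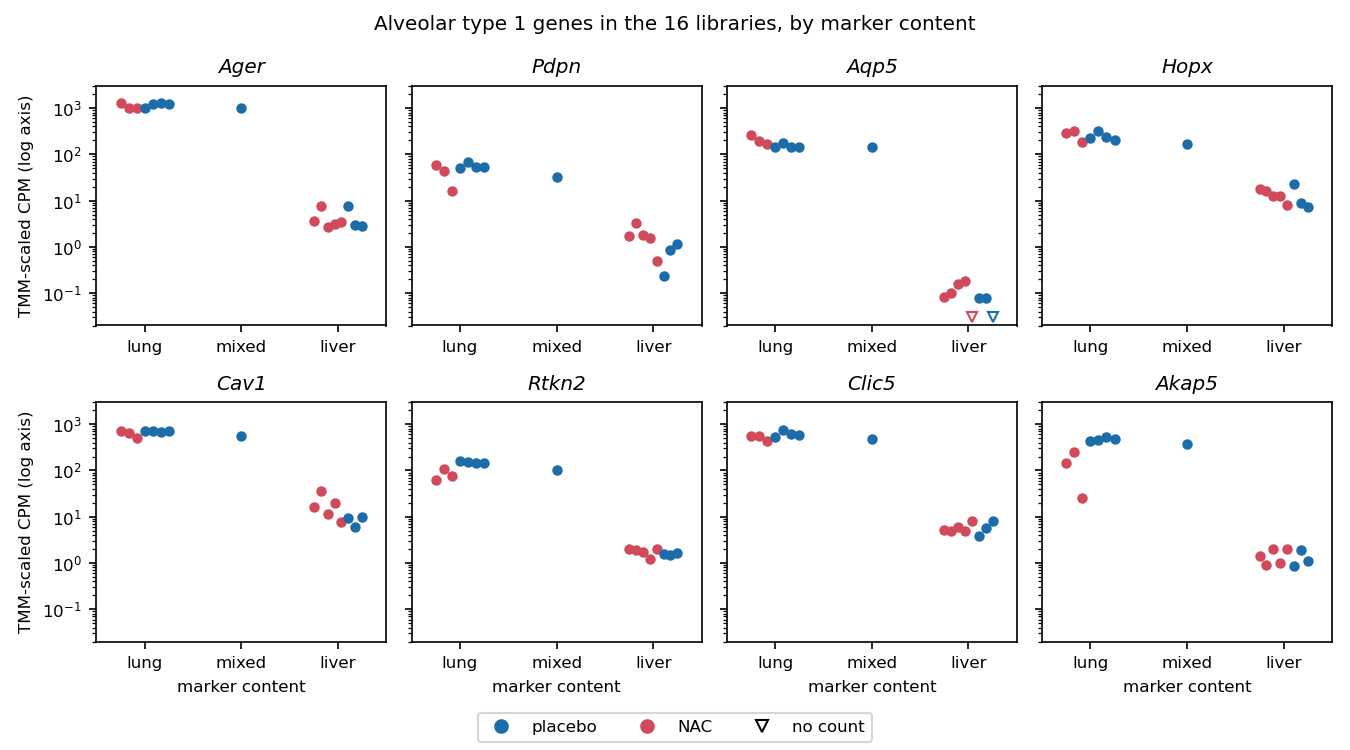
Level of each alveolar type 1 gene in the 16 libraries (TMM-scaled CPM, log axis), by marker content on the horizontal axis and coloured by treatment; each point is 1 pooled library and an open triangle marks a library with no count. In all 8 panels the 7 lung-content points lie above the 8 liver-content points, and the mixed library lies near the lung-content ones.

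The liver-content libraries still held low counts of most members. Hopx had the highest median there, 12.7 TMM-scaled CPM with a range of 7.37 to 22.4, followed by Cav1 with 10.5 and a range of 6.12 to 35.2. Both genes are also active outside the alveolar epithelium, Cav1 in endothelium. The medians of the others were 5.46 for Clic5, 3.23 for Ager, 1.69 for Rtkn2, 1.37 for Pdpn and 1.26 for Akap5. In the mixed library the members summed to 2876 TMM-scaled CPM, against 2388 to 3843 in lung-content and 28.0 to 70.1 in liver-content libraries. Each member in that library lay between 0.608 (Pdpn) and 0.871 (Akap5) times its lung-content median.

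Levels between genes were compared per kilobase of merged exons. By the lung-content median, Ager led with 567 TMM-scaled CPM per kb, followed by Cav1 with 203 and Hopx with 153. Aqp5 (64.7), Clic5 (64.5) and Akap5 (63.8) had nearly equal medians with overlapping ranges, and Pdpn (29.3) and Rtkn2 (25.7) were lowest, again with overlapping ranges. The range across libraries was narrow for Ager, with the highest 1.32 times the lowest, and for Cav1, at 1.42 times. It was 1.75 times for both Hopx and Clic5, 1.87 for Aqp5, 2.57 for Rtkn2, 4.06 for Pdpn and 20.5 for Akap5.

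Whether NAC went with a change in these genes was asked within lung content, where 3 pup groups had both a NAC and a placebo library. The fit had 2 residual degrees of freedom, with 7.08 more borrowed from other genes. Akap5 and Rtkn2 fell with NAC and Aqp5 rose, while the other 5 members did not pass the test. This must be read against the background: 25.7% of the 14012 genes tested passed at an adjusted p under 0.05 (14% higher, 11.7% lower). The members' share, 3 of 8, came from so small a set that nothing particular to them is read from it. Their median log2 fold change was -0.18, against -0.04 over all genes tested. In whole-lung RNA, fewer type 1 cells and less RNA per cell cannot be told apart.

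Akap5 had 526, 467 and 435 TMM-scaled CPM with placebo in live WT, live heterozygous and dead heterozygous pups and 455 in dead null pups. With NAC it had 256, 25.6 and 143 in the same order, the live heterozygous value resting on 184 counts (95% exact Poisson interval 22.1 to 29.6 TMM-scaled CPM). All NAC libraries lay below all placebo libraries, without overlap, and the live heterozygous one was far below the rest. The log2 fold change was -2.18 ± 0.50 (SE, 3 pairs; edgeR quasi-likelihood test, adjusted p = 0.0162). By pair it was -1.04 in live WT, -4.19 in live heterozygous and -1.61 in dead heterozygous pups, and without the live heterozygous pair the fitted value was -1.32, still past the threshold.

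Rtkn2 had 148, 143 and 158 TMM-scaled CPM with placebo in live WT, live heterozygous and dead heterozygous pups and 153 in dead null pups. With NAC it had 106, 75.3 and 61.3. The 4 placebo libraries were close together, their counting intervals overlapping from each to the next, and all 3 NAC libraries lay below them. The log2 fold change was -0.92 ± 0.18 (SE, 3 pairs; edgeR, adjusted p = 0.00933), and by pair -0.49, -0.92 and -1.36. Rtkn2 and Akap5 were called lower under each of 10 alternative settings.

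Aqp5 had 142, 146 and 147 TMM-scaled CPM with placebo in live WT, live heterozygous and dead heterozygous pups, and 193, 168 and 267 with NAC. Each NAC library was above its partner, but the dead null placebo library, at 174, was above the live heterozygous NAC one. The log2 fold change was 0.50 ± 0.16 (SE, 3 pairs; edgeR, adjusted p = 0.0498). The call was lost when any 1 of the 3 pairs was left out and when libraries were scaled by size alone. By raw CPM the live heterozygous pair turned to -0.22 on the log2 scale, and the other pairs stayed positive.

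**Figure D2:**
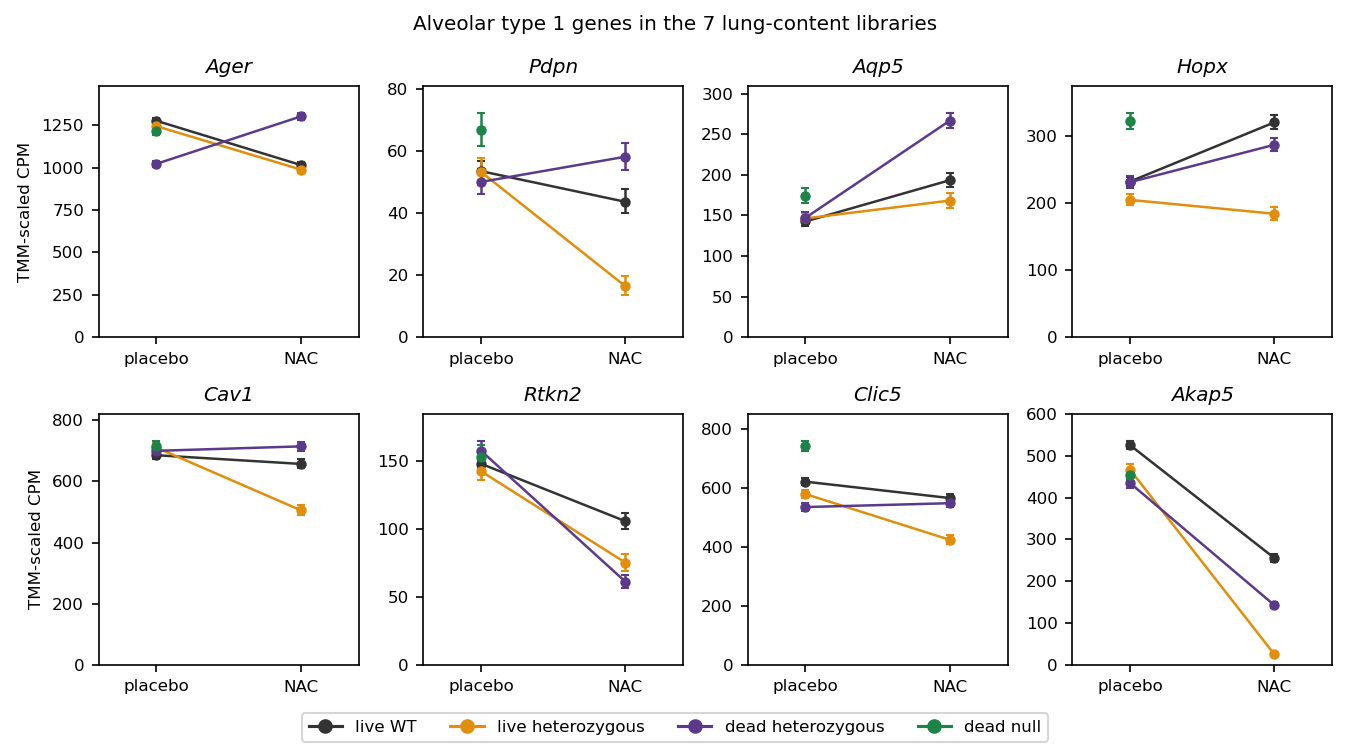
TMM-scaled CPM of the 8 genes in the 7 lung-content libraries; lines join the placebo and NAC library of a pup group, bars are 95% exact Poisson intervals of the count, and dead null pups have a placebo library only. Akap5 and Rtkn2 fall along all 3 lines and Aqp5 rises along all 3. Ager, Pdpn, Cav1 and Clic5 are lower with NAC in both live pairs, without passing the test. In the dead heterozygous pair Ager is higher with NAC, while the intervals of Pdpn, Cav1 and Clic5 overlap.

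The remaining members did not move alike in all pup groups, and their values are given without a call. In dead heterozygous pups the counting intervals with NAC and placebo overlapped for Pdpn, Cav1 and Clic5. By raw CPM the log2 difference there was -0.05 for both Cav1 and Clic5. Ager went from 1276 to 1015 TMM-scaled CPM in live WT and from 1244 to 988 in live heterozygous pups, but from 1022 to 1302 in dead heterozygous pups. Pdpn went from 53.5 to 43.6, from 53.3 to 16.4 and from 50.0 to 58.1 in the same order. The live heterozygous NAC library was thus the lowest for Pdpn, and the highest of the 7 libraries was dead null placebo, which has no NAC partner, at 66.7. Cav1 was 685, 710 and 700 with placebo and 657, 505 and 714 with NAC. Clic5 was 622, 580 and 536 with placebo and 567, 425 and 549 with NAC, and 744 in dead null placebo, the highest of the 7 libraries. Both were thus lowest in live heterozygous pups with NAC. Hopx was 232, 205 and 231 with placebo and 320, 184 and 287 with NAC, and 322 in dead null placebo. None of these 5 genes passed (log2 fold changes -0.54 for Pdpn to 0.21 for Hopx; edgeR, adjusted p 0.214 to 0.657), although Pdpn was called lower without the dead heterozygous pair (adjusted p = 0.011).

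Measures of the libraries moved with some of these values, but not in every library. The live heterozygous NAC library was lowest of the 7 for Akap5, Pdpn, Ager, Cav1, Clic5 and Hopx. It also had the fewest counts (7236865) and the largest share of counts on the ribosomal RNA gene Rn45s, 26.19%. Dead null placebo had the next fewest counts (7739025) and 19.01% on Rn45s, and was highest of the 7 for Pdpn, Clic5, Hopx and Cav1. Dead heterozygous NAC, lowest for Rtkn2, had 8.16% on Rn45s. That share was 8.16% to 26.19% with NAC and 4.05% to 19.67% with placebo. The hepatocyte list (8 of 9 genes tested, 3 higher with NAC: Tat, Cps1 and Alb) summed to 51.2 to 189.6 TMM-scaled CPM with NAC and 21.7 to 192.0 with placebo. The part of these measures in the differences above was not tested.

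Whether the NAC response differed between dead and live pups was tested as an interaction. Ager had a response 0.68 ± 0.23 (log2, SE) higher in dead heterozygous than in live pups (edgeR, adjusted p = 0.291). The difference was 1.16 ± 0.44 for Pdpn (adjusted p = 0.361) and -0.66 ± 0.30 for Rtkn2 (adjusted p = 0.5). No member passed, and 0.457% of 14012 genes did. Only 1 residual degree of freedom remained, so the spread was borrowed largely from other genes.

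Dead and live pups were compared over the 7 lung-content libraries with treatment in the model. No member passed, with log2 differences (dead minus live) between -0.16 for Rtkn2 and 0.46 for Pdpn and an adjusted p of 0.999 for each (edgeR). Aqp5 was 0.32 ± 0.15 and Hopx 0.28 ± 0.22. The background was 0% of 13990 genes, 506 of which had an unadjusted p under 0.05, and DESeq2 called 20. Akap5, at -0.09 ± 0.56, had the largest standard error of the members.

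Live heterozygous pups were compared with live WT pups in 4 lung-content libraries. All 8 members had a negative log2 difference, from -0.04 for Ager to -1.65 for Akap5, and none passed (edgeR, background 0.214% of 13987 genes). Their median was -0.26, against -0.02 over all genes tested. Only 1 residual degree of freedom remained. Between the NAC libraries all 8 members were lower in heterozygous pups, though for Ager the counting intervals overlapped. Between the placebo libraries Aqp5 (146 against 142) and Cav1 (710 against 685) were higher in heterozygous pups, both with overlapping counting intervals. Akap5 was -1.65 ± 0.45 (adjusted p = 0.407): its placebo libraries had 467 in heterozygous and 526 in WT pups, and its NAC libraries 25.6 and 256. Pdpn was -0.65 ± 0.26 (adjusted p = 0.937) and Hopx -0.49 ± 0.18 (adjusted p = 0.903). For Pdpn the placebo libraries were near equal, with 53.3 in heterozygous and 53.5 in WT pups, and the NAC libraries had 16.4 and 43.6. In the same fit Alb and Serpina1a were called higher in heterozygous pups, by 2.04 and 2.01 on the log2 scale; their part in the members' values was not tested.

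**Figure D3:**
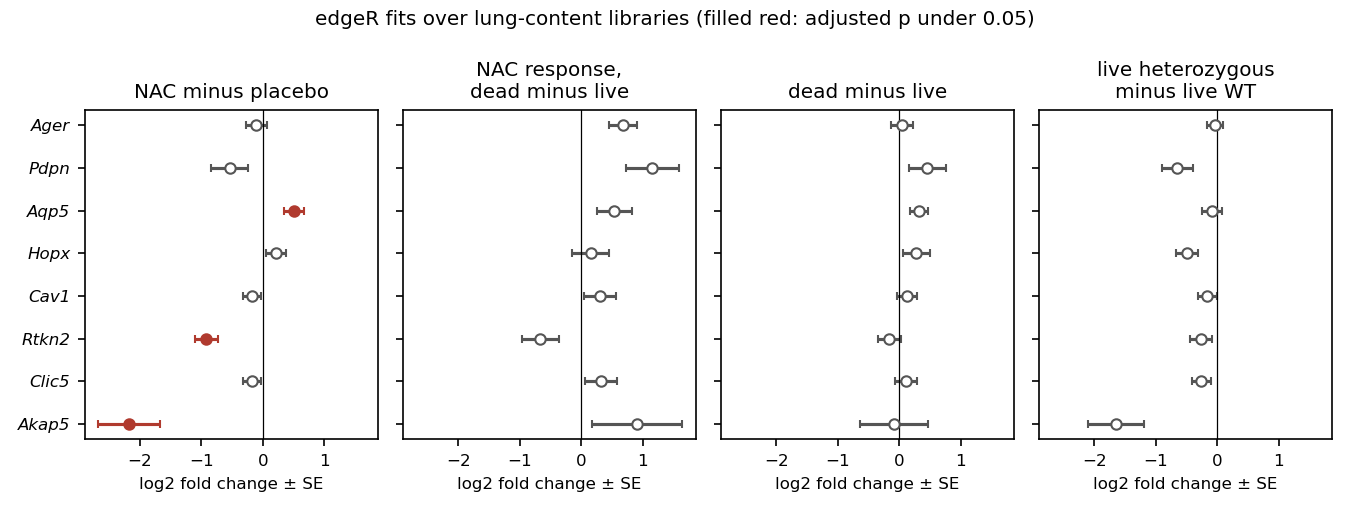
Log2 fold change ± SE of each alveolar type 1 gene in the 4 edgeR fits over lung-content libraries (6, 6, 7 and 4 libraries from left to right); filled red points passed an adjusted p under 0.05. Only the NAC minus placebo panel has filled points, Akap5 and Rtkn2 to the left of 0 and Aqp5 to the right.

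Within liver content the members were near their low levels under both treatments. Of the 8, 6 passed the filter on low counts in the NAC comparison (Pdpn and Aqp5 did not) and none was called, against a background of 0.0309% of 12963 genes. Cav1 had the largest difference there, 0.73 ± 0.37 on the log2 scale (edgeR, adjusted p = 0.479). Between dead and live pups, 7 members were tested and none was called. The background called was 0% of 12993 genes by edgeR, 664 of which had an unadjusted p under 0.05, and DESeq2 called 45. Hopx was 0.91 ± 0.26 higher in dead pups and Ager 0.84 ± 0.38 (edgeR, adjusted p = 0.801 for both).

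When libraries were paired by their tissue labels, as the deposited annotation implies, the members' direction followed content. There was 1 library a group and so no test; a gene was called at an absolute log2 fold change of at least 1. Under the lung label all 8 members were higher with NAC in live WT and live heterozygous pups, for example Ager by 8.43 and 8.46 and Akap5 by 7.06 and 4.54 on the log2 scale. All 8 were lower with NAC in dead heterozygous and dead null pups, Ager with -8.14 and -7.07 and Akap5 with -8.24 and -8.71. The background called in the same direction was 27.5%, 28.4%, 25.9% and 24.9% of all genes tested in these 4 pairs, in the order given. Under the liver label all 8 members were lower with NAC in both live groups, where 25.6% (WT) and 25.3% (heterozygous) of genes were called lower, and in dead null pups (26.7%), and all 8 were higher in dead heterozygous pups, where 26.1% were called higher. Within lung content Ager differed by -0.33, -0.33 and 0.35 in the live WT, live heterozygous and dead heterozygous pairs, and Akap5 by -1.04, -4.19 and -1.61, so that for Akap5 the live heterozygous difference had a size near that of the label pair and the opposite sign.

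**Figure D4:**
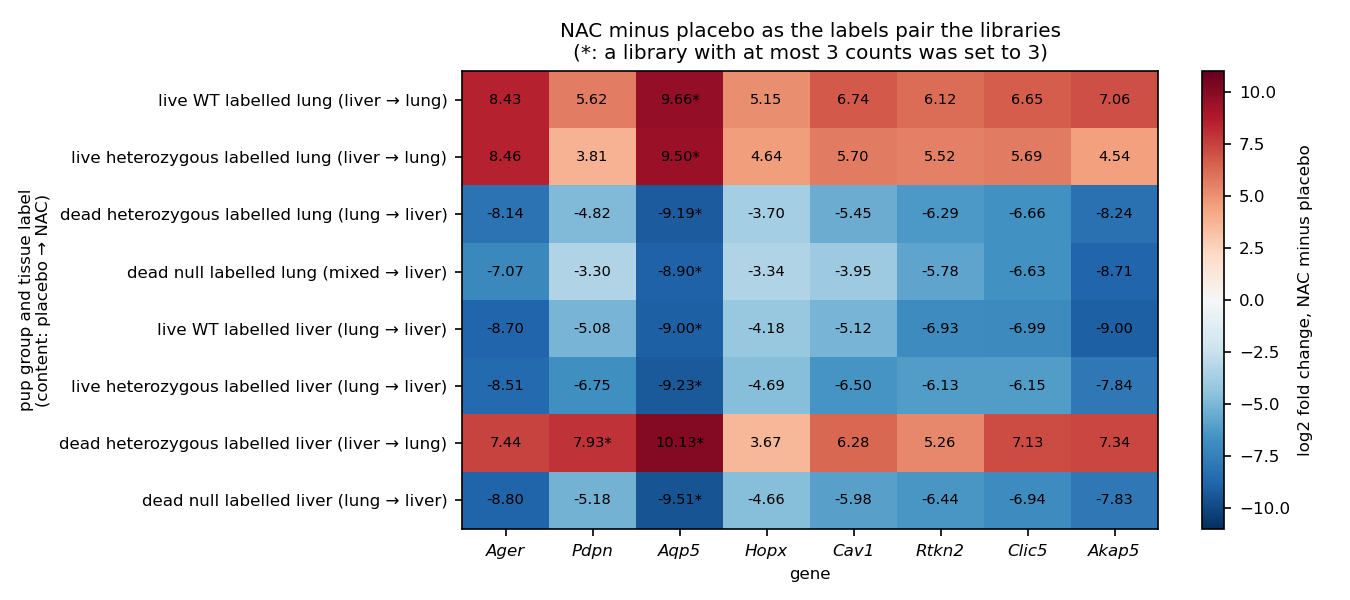
Log2 fold change of NAC minus placebo for each gene (columns) in the 8 pairs formed by the deposited labels (rows), with the marker content of the placebo and the NAC library in brackets; an asterisk marks values where a library with at most 3 counts was set to 3. Rows that go from liver to lung content are positive for all 8 genes, and rows that go from lung or mixed to liver content are negative for all 8.

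Other genes listed for the alveolar epithelium were examined in the lung-content NAC fit, with edgeR. By summed level the wider type 1 list was less particular to lung content than the members. It summed to 2254 to 4858 TMM-scaled CPM in liver-content and 5352 to 7297 in lung-content libraries. A sum rests mostly on its most abundant genes. In the liver-content NAC comparison 12 of its 20 genes passed the filter on low counts, beside 6 of the 8 members. A change in these genes cannot be assigned to type 1 cells from these data. Of 20 further alveolar type 1 genes, 3 were higher with NAC and 7 lower, with a median log2 fold change of -0.44, against 14% higher and 11.7% lower and a median of -0.04 over all genes tested. Those higher were Timp3, a metalloproteinase inhibitor (1.51 ± 0.13, adjusted p = 0.000344), Gprc5a (0.89) and Lmo7 (0.84). Those lower included Cldn18, the tight junction claudin of the alveolar epithelium (-1.12 ± 0.14, adjusted p = 0.00173), Igfbp2 (-0.84) and Vegfa (-0.79), the growth factor that type 1 cells supply to capillary endothelium. The members and this wider list thus both held genes that rose and genes that fell. The dead null placebo library was outside this fit. Its Timp3 was 1419 TMM-scaled CPM, against 466 to 654 in fitted placebo and 1295 to 1897 in NAC libraries. Its Lmo7 was 579, against 335 to 369 and 552 to 711. Its Vegfa, 599, was above the fitted placebo range (451 to 505), away from NAC (237 to 325). Gprc5a, Cldn18 and Igfbp2 lay between those ranges.

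Counts of the lists that follow stand beside the same 14% of all genes called higher and 11.7% lower, and are descriptions of small lists. Of 8 regulators of type 1 identity, Wwtr1, which encodes TAZ, was higher (0.64 ± 0.16, edgeR, adjusted p = 0.0192). Tead1 was also higher (0.46 ± 0.15, edgeR, adjusted p = 0.0458), and none was lower. Nkx2-1 was 0.11 ± 0.14. In dead null placebo, outside the fit, Tead1 was 181 TMM-scaled CPM, within the NAC range (171 to 259) and above fitted placebo (133 to 163). Wwtr1 there was 212, between fitted placebo (169 to 194) and NAC (249 to 337). Of 10 type 2 genes, 3 were lower, namely Etv5 (-1.07), the phosphate transporter gene Slc34a2 (-1.02) and Lpcat1 (-0.86), and none was higher. Of 8 genes that mark epithelial cells in transition from type 2 to type 1, 6 were higher and none lower, led by Cdkn1a, a cell cycle inhibitor (3.08 ± 0.20, adjusted p = 0.000167), Cldn4 (1.84) and Sfn (1.73). Their summed level was 1425 to 1765 TMM-scaled CPM with NAC and 674 to 1495 with placebo, so the ranges overlapped. The placebo median was 687. Placebo sums here and below are over 4 libraries, with dead null placebo, which the fit left out. That library lay between fitted placebo and NAC libraries for Cdkn1a (168, against 36.4 to 50.5 and 304 to 435), Cldn4 and Sfn. Krt8, Krt18 and Krt19 were among those that rose, by 1.28, 1.46 and 0.90. Cdkn1a, Krt8 and Krt18 are not confined to the epithelium.

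Markers of other lung cells that can share members with type 1 cells were mixed. Among 10 endothelial markers Cdh5 was higher (0.59) and Car4 lower (-1.16), and their sum was 2095 to 2245 TMM-scaled CPM with NAC and 1774 to 2148 with placebo. Of 5 lymphatic endothelial markers, a cell type that also makes podoplanin, Lyve1 was higher (0.60), and of 5 mesothelial ones Lrrn4 (-1.46) and Upk3b (-1.23) were lower. Of 6 fibroblast and smooth muscle markers Pdgfra was higher and Acta2, Tcf21 and Myh11 were lower. Dead null placebo, outside the fit, had 211 TMM-scaled CPM of Pdgfra, against 62.9 to 88.4 in fitted placebo and 169 to 200 in NAC libraries. Its Tcf21, 182.4, was within the fitted placebo range (181.5 to 206.9), as was its Cdh5 (473, against 375 to 554). Of 3 airway markers tested Scgb3a2 was higher, of 4 macrophage markers tested Cd68 was lower, and none of 6 cardiac markers tested was called. In the other lung-content fits the listed genes called were Csf1r, higher in the dead minus live NAC response, and the hepatocyte genes named above. The part of these cells in the members' values was not tested.

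**Figure D5:**
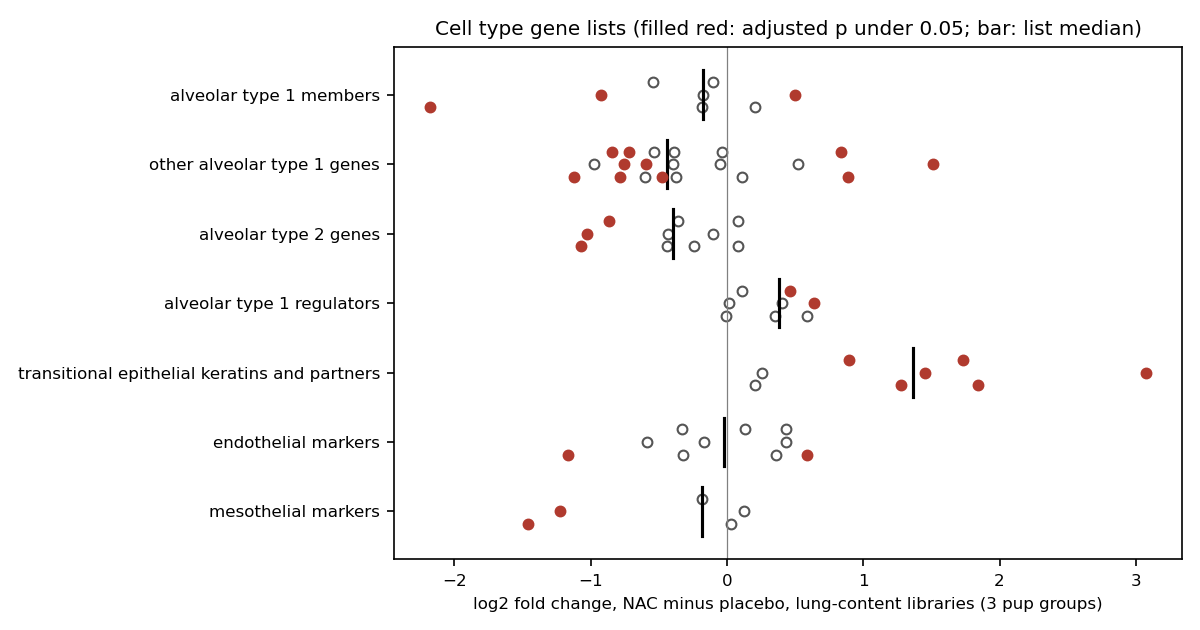
Log2 fold change of NAC minus placebo over lung-content libraries (6 libraries, 3 pairs) for the genes of 7 lists, 1 point a gene, with a bar at the list median; filled red points passed an adjusted p under 0.05 in the edgeR fit. The alveolar type 1 lists have red points on both sides of 0, the type 2 list only to the left, and the transitional keratin list only to the right.

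How far the members varied together was described by Pearson correlation of log2(TMM-scaled CPM + 1) over the 7 lung-content libraries, which share their scaling and 1 library that was lowest for 6 members. Pdpn and Cav1 were most alike (r = 0.987), and Akap5 was most like Cav1 (r = 0.882). Aqp5 ran opposite to Rtkn2 (r = -0.80), and its median r with the other members was 0.0762. Among 8882 other genes, the 10 most like the mean of the members were Emp2 (r = 0.996), an alveolar type 1 membrane protein gene from the list above, Magi3 (0.994), Wwc1 (0.992), Anapc11, Boc, Sema3a, Josd2, Nedd4, Stxbp2 and Rnf13 (0.983). All 10 were lowest in the live heterozygous NAC library. Without it, over 6 libraries, their r was 0.824 to 0.969 and 1 of the 10 stayed among the 10 most alike.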

How the data were processed

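Poly(A) libraries from pooled RNA were sequenced and aligned by the authors with OSA to the Ensembl Mouse.B38 gene model; the submitters' notes list mm10, R 4.0.3 and edgeR 3.30.3. The deposited table held estimated counts per gene (6.3% to 8.02% of values not whole), not normalized in the deposited table, which were rounded here. TMM factors were set over the 16 libraries. Each comparison used the edgeR 4.0.16 quasi-likelihood test (R 4.3.3; two-sided; a gene entered when it averaged 1 CPM or more; Benjamini-Hochberg over all genes tested), with pup group as a block for NAC and treatment as a covariate otherwise. Code was tested on simulated data. Intervals (95%) and floors (3 counts) cover counting error only. Gene positions came from GENCODE M21. Alternatives were other scalings, no filter, DESeq2 1.42.0, summed repeated symbols, no block and leaving out libraries. The members, gene lists and tests were chosen with earlier results of these data known. Named were the 8 members, Man1a2, Sftpc, Alb, the 10 most alike genes and, per list and fit, up to 3 called genes a direction by size; Nkx2-1, the keratins and Rn45s were added after their values were seen. The list of erythroid markers is not reported here.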

Additional observations from a re-analysis of the deposited data

Results flagged for a closer look

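Of 15 groups of libraries screened for a library far from the rest, 3 had one, and chance gives about 1 in 20. Aqp5 was highest of the lung-content libraries in dead heterozygous NAC, labelled liver, at 266.7 TMM-scaled CPM (gap over range 0.591). Cav1 was lowest of the lung-content libraries in live heterozygous NAC, labelled lung, at 505.4 (0.722), and highest of the liver-content libraries in dead null NAC, labelled lung, at 35.2 (0.532).

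Under the lung label, all 8 members moved one way with NAC in both live pup groups and the other way in both dead ones, and the difference was not tested. The smallest live log2 fold change exceeded the largest dead one by 15.50 for Ager, 7.11 for Pdpn, 18.40 for Aqp5 (libraries with at most 3 counts set to 3), 7.98 for Hopx, 9.66 for Cav1, 11.30 for Rtkn2, 12.32 for Clic5 and 12.79 for Akap5. In each of these pairs the marker content of the NAC and placebo libraries differed. The mixed library, which entered 1 label pair but none of the tests reported, held 2876 TMM-scaled CPM of the members summed.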

How the results depend on the processing

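Akap5 (-2.85 to -1.32, adjusted p 0.000488 to 0.0496) and Rtkn2 (-1.20 to -0.70, 0.00012 to 0.0361) passed under each of 10 alternatives of the lung-content NAC fit. Aqp5 (0.22 to 0.65, 0.0339 to 0.425) did not pass under library size alone, which left 0 members called higher, nor in the 3 leave-outs, also 0. Library size alone moved the median of all genes to -0.32 and the split to 816 higher and 2846 lower (1961 and 1640 as reported). Leaving out a pair gave 1175 (live heterozygous) to 4219 genes called. Without the replicate block, the labels carrying no shared replicate numbers, 2229 genes were higher and 1926 lower.

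Genes called in the other fits were as follows. The NAC response, dead minus live, had 64, against 28 with DESeq2, 7 with TMM over the fitted libraries and 219 with no filter. Live heterozygous minus WT had 30, against 14 with DESeq2, 16 by library size and 64 with no filter, which also called 1 member lower, Akap5. Dead minus live in lung content had 0, against 20 with DESeq2 and 1 with no filter. Liver-content NAC had 4, against 222 with DESeq2, 15 with no filter, 0 with relative log expression factors, 0 without the replicate block, and 0 to 146 in leave-outs. Liver-content dead minus live had 0, against 45 with DESeq2, 1 with no filter and 0 to 10 in leave-outs.

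Signs that reversed, none of them called, were these, with the other end of the leave-outs in brackets. In lung-content NAC, Ager was 0.0084 without live WT and 0.0093 without live heterozygous, with a range of -0.33 to 0.0093 over leave-outs, and Hopx -0.067 by library size. In lung-content dead minus live, Ager was -0.17 and Rtkn2 0.10 (lowest -0.24) without dead heterozygous NAC, Ager -0.014 by library size and at most 0.17 in leave-outs, Akap5 0.64 (lowest -0.38) without live WT NAC and Clic5 -0.0067 (highest 0.23) without dead null placebo. In liver-content NAC, Ager was 0.17 (lowest -0.52) and Clic5 -0.10 (highest 0.20) without dead heterozygous, Akap5 -0.12 (highest 0.80) without live heterozygous, and Hopx -0.13 (highest 0.31) without live WT and -0.012 without the replicate block. In liver-content dead minus live, Pdpn was -0.45 (highest 1.15) without live heterozygous NAC and Rtkn2 -0.047 (highest 0.34) without live WT NAC.

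Of the 10 most alike genes, 2 were shared with Spearman correlation, 6 with raw CPM and 1 without live heterozygous NAC, the last chosen after seeing the data. Raw CPM medians were 1408 for Ager, 910 for Cav1, 722 for Clic5, 365 for Hopx and 70.9 for Pdpn. The cause of these changes was not tested. Leave-outs were not run for the NAC response and live heterozygous fits, which would keep no residual degrees of freedom. With 1 pool per cell of the design, a difference that no test called is not shown to be absent.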
